A study of Mus musculus with 162 samples.

Results

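Described here are 10 genes, many of which cells switch on quickly after a stimulus. They are the Fos family members Fos, Fosb, Fosl1 and Fosl2, the Jun family members Jun, Junb and Jund, and Egr1, Arc and Npas4. They were taken by symbol from the 46078 genes listed in each library, after the Ensembl identifiers were matched to mouse symbols, and all 10 were found. Messenger RNA was measured by RNA-seq in skin, trigeminal ganglia (TG, which hold the cell bodies of the sensory neurons of the face) and spinal cord of adult male C57BL/6 mice. Mice were treated daily with 0.2 mM MC903, a vitamin D analog that produces a dermatitis and itch resembling atopic dermatitis, or with ethanol, its vehicle, on the cheek for skin and ganglia and on the rostral back for spinal cord. Day 1 was sampled 6 hours after the first application, and the comparison at each day asks how MC903 changed the tissue relative to ethanol.

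Uninjected wild-type mice gave 4 MC903 and 4 ethanol libraries of skin at day 1, 3 and 2 at day 2, 3 and 3 at day 5, and 5 and 6 at day 8. For ganglia these numbers were 4 and 4, 3 and 2, 3 and 3, and 5 and 5. Spinal cord was taken at day 8 only, with 4 and 5 libraries from uninjected mice. Further wild-type mice were injected daily with PBS or with 250 µg of aGr1, an antibody against Gr1 that depletes neutrophils, and were sampled at day 8. The PBS groups had 2 MC903 and 3 ethanol libraries of skin, 4 and 3 of ganglia and 2 and 2 of spinal cord, and the aGr1 groups 4 and 4, 4 and 4, and 8 and 6. Uninjected TSLPR KO mice, which lack the receptor gene Crlf2 in every cell, gave 3 and 2 skin and 2 and 2 ganglion libraries at day 8, and 4 and 3 skin and 4 and 4 ganglion libraries at day 12. Uninjected BLT1 KO mice, bred to lack the leukotriene B4 receptor gene Ltb4r1, gave 3 and 3 skin libraries at day 8. The labels number the replicates without saying how animals, litters or dissection times map onto them, so the p-values measure the spread between these libraries.

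AP-1 is a transcription factor made of a Jun protein paired with a Fos, Jun or ATF protein, and it binds short DNA sites near genes of proliferation, differentiation and inflammation. Immediate early genes are transcribed within minutes of a stimulus from factors already present in the cell, without new protein synthesis, and their mRNAs are mostly short-lived. In epidermis AP-1 is known for control of keratinocyte differentiation and wound responses, and in neurons Fos, Egr1, Arc and Npas4 are widely used as marks of recent activity. Handling and dissection can also induce these genes, and the labels and methods give no dissection times.

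The promoters of 4 members are shown. These are Fos, Fosl2 and Junb, which carry most of the changes described below, and Fosb, the most variable member between ethanol libraries of skin and spinal cord. Fosl1, with more calls than Fos, had no promoter at hand. The sequences are the 150 bases before the RefSeq start of each gene on the GRCm38.p6 assembly, read 5′ to 3′ on the gene's strand, with matches to the searched motifs in capitals. The windows are chr12:85473740-85473889 (plus strand) for Fos, chr7:19310046-19310195 (minus) for Fosb, chr5:32136322-32136471 (plus) for Fosl2 and chr8:84978749-84978898 (minus) for Junb.
Fos: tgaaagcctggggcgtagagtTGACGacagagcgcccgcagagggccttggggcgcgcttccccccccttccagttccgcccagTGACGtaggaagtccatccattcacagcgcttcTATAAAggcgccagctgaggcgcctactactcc
Fosb: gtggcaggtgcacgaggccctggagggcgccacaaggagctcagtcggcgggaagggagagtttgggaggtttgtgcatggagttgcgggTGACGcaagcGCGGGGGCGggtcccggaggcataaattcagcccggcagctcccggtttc
Fosl2: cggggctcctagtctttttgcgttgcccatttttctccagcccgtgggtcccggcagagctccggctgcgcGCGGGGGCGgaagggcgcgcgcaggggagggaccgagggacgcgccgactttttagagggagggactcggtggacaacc
Junb: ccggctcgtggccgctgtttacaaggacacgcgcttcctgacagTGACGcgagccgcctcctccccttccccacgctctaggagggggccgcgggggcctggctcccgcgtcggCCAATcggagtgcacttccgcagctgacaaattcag

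Both strands were searched for the core of the CREB site, TGACG, the AP-1 site, TGANTCA, an EGR site, GCGNGGGCG, the TATA box, TATAAA, the CCAAT box and the CArG box bound by serum response factor. RefSeq promoters were at hand for 7 of the 10 members. TGACG lay in 3 of these 7 (Fos, Fosb and Junb) and in 13.3% of all 32851 mouse promoters of the same length. Fos holds it in 2 places, the nearer starting 66 bases before the gene and followed by a TATA box at 33, and in Fosb it starts at 60 and in Junb at 106. The EGR motif lay in Fosb and Fosl2 (3.81% of all promoters), the CCAAT box in Jun and Junb (24.5%), the TATA box in Fos (7.57%), and the AP-1 and CArG motifs in none of the 7 (4.24% and 0.916% of all promoters). These are letter matches in a short window and say nothing about occupancy. RefSeq and GENCODE starts differ for some members. The Jund window, 70697589 to 70697738, ends well before the GENCODE start at 70698949, so the bases next to that start were not searched. The Fosl2 and Npas4 windows lie inside the GENCODE spans of these genes.

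After the wild-type day 12 libraries were set aside, 144 libraries remained (61 of skin, 56 of ganglia and 27 of spinal cord), with 15931871 to 67342879 counts on genes and a median of 27654801.5. Levels below are in cpm, the counts of a gene scaled to all counts on genes of its library. The gene deleted in TSLPR KO mice, Crlf2, had 0.0691 to 1.34 cpm in their skin against 2.24 to 15.4 in wild-type skin. In their ganglia Crlf2 had up to 2.06 cpm, with a median of 1.3, against 0.117 to 7.58 in wild-type ganglia, so the genotypes overlap there and these counts do not check the ganglion labels. Ltb4r1 had 2.33 to 15.1 cpm in BLT1 KO skin and 2.52 to 77.6 in wild-type skin, so its counts do not show the deletion, the deleted stretch is not given in the sources used here, and the genotype is taken from the labels. The cell type markers fixed for each tissue were present in it, with keratinocyte sums of 3320 to 32200 cpm over 6 genes in the skin libraries and sensory neuron sums of 1640 to 4790 cpm over 8 genes in the ganglia. Some libraries stand apart in these sums, and the main member effects in their own comparisons are given with and without them. Levels per kilobase, spread, correlations and counts of the gene lists were not repeated without them. The libraries that stand apart are MC903 replicates 1 and 2 of ganglia at day 1, MC903 replicate 1 of TSLPR KO ganglia at day 8, MC903 replicate 3 of skin at day 2 and ethanol replicates 1, 2 and 4 of aGr1 skin. In whole tissue a lower level can mean fewer cells of a type or less RNA per cell, and these cannot be told apart.

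The members lie on 8 mouse chromosomes in GRCm38 with the GENCODE M21 annotation, as protein-coding genes. Fos is at chromosome 12, 85473890 to 85477273, Fosb at 7, 19302696 to 19310051, Fosl1 at 19, 5447547 to 5455946, Fosl2 at 5, 32135801 to 32157842, and Npas4 at 19, 4984355 to 4990316. Jun is at chromosome 4, 95049034 to 95052222, Junb at 8, 84974484 to 84978718, Jund at 8, 70698949 to 70700616, Egr1 at 18, 34859823 to 34864984, and Arc at 15, 74669083 to 74672570. Fosl1 overlaps Ccdc85b, Jun overlaps Junos, Junb overlaps Prdx2 and Jund overlaps Gm11175 on the opposite strand. The strand setting of the counting is not given in the sources used here, so reads shared with these neighbours cannot be told apart.

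In ethanol-treated tissue the members had different orders of level in each tissue, counted per kilobase of exon so that genes can be compared. In skin the median over 30 libraries was 46 cpm per kb for Jund, 36.7 for Junb, 26 for Fosl2, 19.9 for Jun, 14.9 for Egr1 and 4.4 for Fos. Fosl1, Fosb, Arc and Npas4 followed, each under 1, with medians of 0.903, 0.624, 0.484 and 0.0797. Neighbours in this order overlapped: the lowest library of Jund had 24.4 and the highest of Junb 83.7. In ganglia Jun (28.3, range 19.4 to 44.8) and Jund (25.3, 15.4 to 52.8) stood above all others without being separable from each other, and the next were Junb (3.67), Egr1 (1.77), Fos (1.6) and Fosl2 (1.48). In spinal cord the order was Jund (40.3), Jun (14), Arc (5.53), Fos (4.25), Egr1 (3.95), Junb (3.15) and Fosl2 (1.36), and the ranges of Arc, Fos, Egr1 and Junb overlapped. Arc, the activity-regulated cytoskeletal protein of synapses, was thus among the lower members in skin and ganglia and among the middle ones in spinal cord.

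MC903 was compared with ethanol in 20 groups of libraries with edgeR's quasi-likelihood F test, fitted across all genes with Benjamini-Hochberg adjustment, at an adjusted p of 0.05 in skin and spinal cord and 0.1 in ganglia, the thresholds of the study's methods. Of the 200 member values, 47 passed. Junb accounted for 11 of them, Fosl2 for 10, Fosl1 for 7, Fos for 6, Arc for 5, and Jun, Jund, Egr1 and Npas4 for 2 each. Fosb passed in no comparison by this test, although it passed with other settings in single skin comparisons given below.

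At 6 hours in skin, Fosl2 and Junb rose slightly with MC903 and the other 8 members did not pass. Junb, which pairs with Fos proteins and restrains Jun activity in many settings, had 188, 204, 152 and 168 cpm with MC903 and 140, 99.2, 116.8 and 84.2 with ethanol. The groups did not overlap, and the log2 fold change was 0.66 ± 0.137 (SE; adjusted p = 0.015). Fosl2, the Fos family member Fra-2, had 412, 408, 338 and 378 cpm against 318, 278, 273 and 178, also without overlap (0.53 ± 0.13, adjusted p = 0.029). At this day 13% of all 24749 genes tested passed. The Fosl2 call was lost when any of 5 of the 8 libraries was left out, and in a fit over all skin libraries both genes had an adjusted p of 0.12.

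Fos and Fosb at 6 hours showed how far single libraries can differ. Fosb had 1.32, 1.36, 1.4 and 2.19 cpm with MC903, and 1.61, 3.47, 51.1 and 4.0 with ethanol, so ethanol replicate 3 stood far above the others of its group. The log2 fold change was −3.22 ± 0.979 (adjusted p = 0.056), and without that library it was −1.03 (adjusted p = 0.11). Without the filter on low counts, the value over all libraries passed (adjusted p = 0.042). Fos had 25.4, 27, 16.1 and 21.9 cpm against 9.34, 34.5, 39.2 and 27.4, and the groups overlapped. Fibroblast marker sums were lower with MC903 in these libraries (5560 to 8760 cpm against 9130 to 18400), as were immune marker sums (108 to 146 against 156 to 219), and their part in these values was not tested.

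At day 2 none of the members passed, nor did any of the 24580 genes (0%), while 1190 genes and 2 members had an unadjusted p under 0.05. Those members were Fos and Fosl1. Fos had 77.8, 37.3 and 59.1 cpm with MC903 in replicates 1, 2 and 3, and 27.3 and 10.5 with ethanol (fold change on the log2 scale 1.59 ± 0.486, adjusted p = 0.84 in edgeR). Fosl1, the gene of Fra-1, had 3.92, 4.35 and 3.18 cpm against 1.81 and 0.795 (1.53 ± 0.527, adjusted p = 0.9). The MC903 libraries lay above the ethanol libraries in both genes, and DESeq2's Wald test called Fos (adjusted p = 0.032). MC903 replicate 3 also held neuronal transcripts, with sums of 1210 cpm for sensory neuron markers, against at most 47.7 in every other skin library, and of 1770 each for spinal cord neuron and glia markers and Schwann and satellite glia markers, also the highest in skin. Without it the log2 fold change was 1.64 for Fos (adjusted p = 0.42) and 1.69 for Fosl1 (adjusted p = 0.35).

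At day 5 Fos, Fosl1, Fosl2, Jun and Junb rose in skin, where 14.9% of 24226 genes passed. Fos had 55.7, 42.1 and 69.8 cpm with MC903 and 7.36, 9.76 and 5.64 with ethanol, a log2 fold change of 2.8 ± 0.223 (adjusted p = 0.00032). Fosl1 rose most, from 0.854, 1.12 and 0.578 cpm to 8.77, 5.72 and 7.64 (3.03 ± 0.28, adjusted p = 0.00063). Junb rose from 70.5, 67.8 and 58.8 cpm to 268, 255 and 251 (1.87 ± 0.161, adjusted p = 0.00048), and its 3 MC903 libraries differed by less than the ethanol libraries did in relative terms. None of these libraries overlapped between treatments. Fosl2 had 453, 366 and 477 cpm against 191, 230 and 142 (1.12 ± 0.178, adjusted p = 0.0064). Jun, the founding Jun protein and the strongest activator of its family, had 68.8, 66.6 and 78.2 cpm against 46.2, 41.9 and 39.2 (0.64 ± 0.163, adjusted p = 0.036), and this call was lost without any of 5 of the 6 libraries.

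Egr1, Arc, Npas4, Fosb and Jund did not pass at day 5. Arc had 1.24, 1.34 and 1.19 cpm with MC903 and 0.591, 0.683 and 0.867 with ethanol, without overlap (fold change on the log2 scale 0.68 ± 0.385, adjusted p = 0.28), and Fosb overlapped (0.06). Egr1, a zinc finger factor induced by growth factors, had overlapping libraries (25.7, 32.1 and 50.8 cpm against 23.4, 30.8 and 28.9). Npas4, a factor induced by depolarisation in neurons, had 0, 2 and 0 counts with MC903 against 9, 10 and 6 with ethanol, at least 2.67-fold lower when 3 counts per library is taken as the limit of detection, and its adjusted p was 0.058. Keratinocyte marker sums were 13300 to 18700 cpm with MC903 and 6790 to 9110 with ethanol, and skeletal muscle sums were 3400 to 6660 against 9980 to 12700. TMM scaling also shifted MC903 against ethanol libraries by 0.103 on the log2 scale. The part of this change in tissue composition in the members' values was not tested.

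At day 8 Fos, Fosl1, Junb and Arc rose in skin of uninjected wild-type mice, where 23.4% of 26175 genes passed. Fos ran from 38.5 to 77.8 cpm in the 5 MC903 libraries (58.3, 52.9, 77.8, 38.5 and 50.2), whereas the 6 ethanol libraries ran from 7.97 to 15.6. The log2 fold change was 2.22 ± 0.202 (adjusted p = 7.4e-06). Fosl1 had 8.71, 8.77, 10.3, 8.59 and 17.1 cpm with MC903 and 1.87 to 3.53 with ethanol (2.07 ± 0.227, adjusted p = 3.7e-05), and Junb 318, 268, 341, 253 and 351 against 118.4 to 193 (1.07 ± 0.155, adjusted p = 0.00036). For these 3 genes the groups did not overlap, and the calls held whichever of the 11 libraries was left out.

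Arc had 2.84, 2.39, 5.21, 3.11 and 4.25 cpm with MC903 and 0.922 to 3.1 with ethanol. The groups overlapped, the log2 fold change was 1.1 ± 0.312 (adjusted p = 0.023), and the call was lost without any of 3 libraries, MC903 skin4 and rep2 and ethanol rep2. Fosl2 lay just outside the threshold (0.42 ± 0.143, adjusted p = 0.051) and passed with DESeq2 (adjusted p = 0.019). Jun (0.01 ± 0.126), Egr1 (−0.14 ± 0.177) and Fosb (−0.46 ± 0.366) did not pass.

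The day 8 libraries carry labels of different styles, which were entered as a cohort term, with 3 MC903 and 3 ethanol libraries in cohort A and 2 and 3 in cohort B. In cohort A, MC903 skin1 and skin4 carry the same replicate number, as do ethanol skin3 and skin7. Whether these are separate animals is not given, and each was counted as its own library. Within cohort A the log2 fold change of Fos was 2.64 and within cohort B 1.66. Fosl1 had 1.82 and 2.35, and Junb 0.91 and 1.24, each past the threshold in both cohorts. Arc had 0.55 in cohort A (adjusted p = 0.38) and 1.77 in cohort B (adjusted p = 0.0095). Jund, the third Jun family protein, had −0.76 in cohort A (adjusted p = 0.016) and 0.01 in cohort B, and −0.40 ± 0.157 over both (adjusted p = 0.082). Keratinocyte sums were 12100 to 23200 cpm with MC903 and 6260 to 8070 with ethanol, and immune marker sums were 262 to 623 against 108 to 217. The part of these cells in the members' values was not tested.

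**Figure D1:**
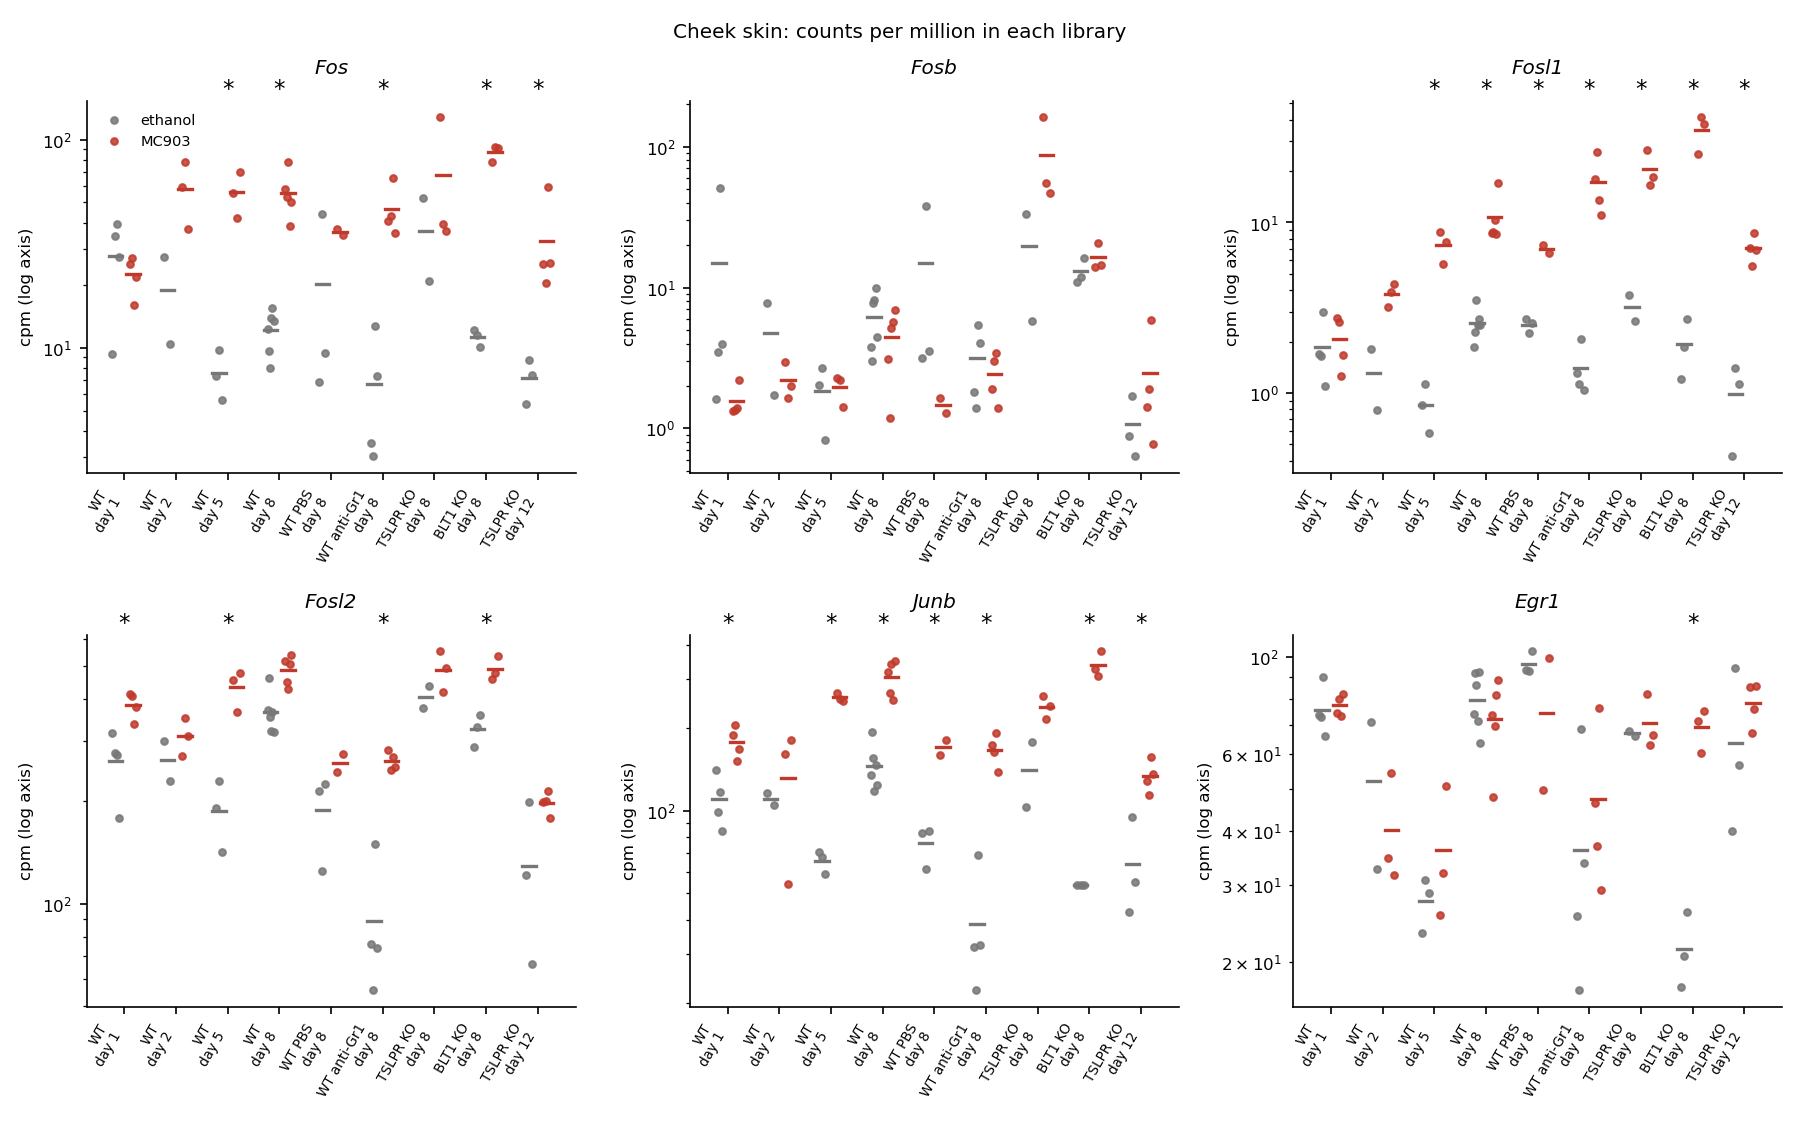
Levels of Fos, Fosb, Fosl1, Fosl2, Junb and Egr1 in cpm (log axis) in each skin library, by group along the x axis, with MC903 and ethanol libraries as separate points, bars at the group means and an asterisk where the member passed the test. From day 5 the MC903 points of Fosl1 lie above the ethanol points in every group, whereas those of Fosb scatter widely, with the ethanol library at 51.1 cpm at day 1.

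Skin of mice injected with PBS gave 2 member calls, Fosl1 and Junb, where 3.99% of 24416 genes passed. Fosl1 had 7.33 and 6.59 cpm with MC903 and 2.72, 2.26 and 2.57 with ethanol (fold change on the log2 scale 1.5 ± 0.235, adjusted p = 0.023). Junb had 159 and 181 cpm against 82.7, 61.5 and 84.6 (1.19 ± 0.215, adjusted p = 0.035). Neither group overlapped, but both calls were lost in 4 of the 5 fits that left out 1 library. Fos did not pass (0.87 ± 0.75): it had 37.3 and 34.8 cpm with MC903, and 6.84, 44.2 and 9.48 with ethanol. The ethanol library with 44.2 cpm of Fos, replicate 2, also held 38.0 cpm of Fosb against 3.16 and 3.56 in the others, and the log2 fold change of Fosb was −3.30 ± 1.26 with it and −1.16 without it. Immune marker sums were 463 to 526 cpm with MC903 and 94 to 143 with ethanol, keratinocyte sums 9780 to 13100 against 6360 to 9600, and Schwann and satellite glia sums 52.2 to 64.7 against at least 69, without overlap, and their part in the members' values was not tested.

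With aGr1 7 of the 10 members passed, where 32.6% of 25287 genes did. Fos had 40.9, 43.1, 65.4 and 35.8 cpm with MC903 and 3.51, 3.03, 12.8 and 7.35 with ethanol (fold change on the log2 scale 2.49 ± 0.392, adjusted p = 0.0016). Fosl1 had 18.1, 25.9, 13.6 and 11.1 cpm against 1.31, 1.13, 2.08 and 1.04 (3.28 ± 0.275, adjusted p = 5.2e-05). All 4 MC903 libraries were above all ethanol libraries for both genes, as they were for Fosl2 (1.25 ± 0.185, adjusted p = 0.0012), Junb (1.79 ± 0.226, adjusted p = 0.00049) and Arc (1.09 ± 0.326, adjusted p = 0.03). The Arc call was lost without any of 4 libraries. Npas4 had 1, 2, 1 and 0 counts with MC903 and 14, 8, 5 and 9 with ethanol, at least 2.63-fold lower (adjusted p = 0.0044). In these libraries TMM scaling shifted MC903 against ethanol by 0.375 on the log2 scale, a larger shift than in the other 19 comparisons. The call of Jund (−0.30 ± 0.0982, adjusted p = 0.041) depended on it: unscaled it had 87.4, 96.2, 84.7 and 83.9 cpm against 80.6, 68.8, 114.8 and 76.6, and its call was lost without any of 7 of the 8 libraries. Keratinocyte sums were 10800 to 18100 cpm against 3650 to 9530. Heat shock sums were 1150, 1050 and 1120 cpm in ethanol replicates 1, 2 and 4, below those of every other skin library (at least 1820), and 2070 in ethanol replicate 3. The same 3 libraries had the lowest Fosl2 (76.3, 55.8 and 73.9 cpm against 150 in replicate 3) and Junb (31.9, 22.3 and 32.5 against 68.7). With ethanol replicate 3 as the lone control, assumed to vary like the other group, 4 members passed, with log2 fold changes of 1.84 for Fos (adjusted p = 0.019), 3.03 for Fosl1 (0.011), 0.8 for Fosl2 (0.03) and 1.27 for Junb (0.013). Arc (0.99, adjusted p = 0.37) and Jund (−0.39, adjusted p = 0.17) did not, and Npas4 had too few counts to be tested in this fit, which was chosen after seeing the data. The part of the heat shock sums in the members' values was not tested.

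Whether aGr1 changed the MC903 effect was tested as a difference of log2 fold changes, and no member passed. Against uninjected mice, where 4.56% of 27824 genes passed, Fosl2 differed by 0.84 ± 0.241 (adjusted p = 0.052 in edgeR) and Fosl1 by 1.23 ± 0.367 (adjusted p = 0.062). DESeq2 called both, and 3 members had an unadjusted p under 0.05. With cohort B alone as the uninjected reference the differences were 0.59 and 0.93, with an adjusted p of 0.3 for each. With ethanol replicate 3 as the lone aGr1 control they were 0.36 and 0.94 (adjusted p = 0.91 and 0.86). Against PBS-injected mice, where 0.232% of 26712 genes passed, Fosl1 differed by 1.83 ± 0.386 (adjusted p = 0.084). That value passed in DESeq2, which called 1 member, and 4 members had an unadjusted p under 0.05. With the lone control it was 1.53 (adjusted p = 0.89).

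In TSLPR KO skin at day 8 only Fosl1 passed, where 2.45% of 24292 genes did. It had 26.8, 16.5 and 18.5 cpm with MC903 and 3.73 and 2.63 with ethanol (fold change on the log2 scale 2.71 ± 0.3, adjusted p = 0.0021). Fosb had 161, 55.1 and 46.7 cpm with MC903 and 33.5 and 5.79 with ethanol. The library with 161 cpm of Fosb, MC903 replicate 1, also had 127.9 cpm of Fos against 39.5 and 36.3 in the other MC903 libraries. Fosb did not pass (2.18 ± 0.708, adjusted p = 0.18), except without the filter on low counts (adjusted p = 0.00095) and without ethanol replicate 1 (log2 fold change 3.86, adjusted p = 0.038). Muscle marker sums were lower with MC903 (2050 to 3970 cpm against 5140 to 10200).

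The MC903 effect in TSLPR KO and wild-type skin at day 8 did not differ past the threshold for any member, where 0.177% of 27120 genes passed and DESeq2 called no member. The members with an unadjusted p under 0.05 were Fosb (difference 2.69 ± 0.84, adjusted p = 0.22 in edgeR) and Fos (−1.28 ± 0.546, adjusted p = 0.35). At day 12 Fos, Fosl1 and Junb rose in TSLPR KO skin, where 10% of 25432 genes passed. Fos had 25.2, 20.4, 59.5 and 25.5 cpm against 5.38, 8.75 and 7.41 (1.99 ± 0.376, adjusted p = 0.012), and the call was lost without ethanol replicate 1 (adjusted p = 0.059). Fosl1 had 7.08, 5.52, 8.69 and 6.85 cpm against 0.427, 1.39 and 1.13 (2.66 ± 0.36, adjusted p = 0.0026). Junb had 128.5, 113.8, 157 and 136 cpm against 42.9, 94.6 and 54.8 (0.91 ± 0.203, adjusted p = 0.024), a call lost without any of 3 of the 7 libraries. Here TMM scaling shifted MC903 against ethanol by 0.203, and keratinocyte sums were 20900 to 32200 cpm against 4350 to 11400.

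BLT1 KO skin had the most member calls, 8 of 10, where 28.6% of 25771 genes passed. Fosl1 rose from 1.2, 1.87 and 2.73 cpm to 25.2, 41.3 and 37.8 (log2 fold change 4.15 ± 0.367, adjusted p = 9.2e-05), and Fos from 12.2, 11.6 and 10.1 to 78.4, 91.9 and 91.4 (2.92 ± 0.149, adjusted p = 1e-05). Junb had 326, 310 and 379 cpm with MC903 and 53.6, 53.7 and 53.8 with ethanol (2.62 ± 0.144, adjusted p = 1.5e-05). Fosl2 rose less (0.55 ± 0.162, adjusted p = 0.034, lost without any of 4 libraries). Egr1 had 71.5, 60.4 and 75.1 cpm against 17.6, 20.7 and 26.1 (1.64 ± 0.18, adjusted p = 0.00025), the only skin group in which it passed, and Arc had 8.42, 12.4 and 16.2 cpm against 1.37, 0.664 and 0.224 (4.01 ± 0.576, adjusted p = 0.0011).

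The other calls in BLT1 KO skin were of lower expression. Jund fell from 71.5, 94.0 and 106 cpm to 45.8, 48.5 and 53.4 (−0.91 ± 0.18, adjusted p = 0.0055). Npas4 had 32, 17 and 21 counts with ethanol and 0 in each MC903 library, at least 7.48-fold lower (adjusted p = 0.0074). Muscle marker sums were 2850 to 7200 cpm with MC903 and 18000 to 30800 with ethanol, keratinocyte sums 18000 to 22100 against 8600 to 10500, and spinal cord neuron and glia sums 35.9 to 43.1 against 99.0 to 111. The part of these changes in the members' values was not tested.

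The MC903 effect in BLT1 KO skin differed from that in uninjected wild-type skin for 5 members, where 6.95% of 27679 genes passed. The difference of log2 fold changes was 2.12 ± 0.42 for Fosl1 (adjusted p = 0.0059), 1.6 ± 0.234 for Junb (adjusted p = 0.00057), 1.83 ± 0.287 for Egr1 (adjusted p = 0.001) and 2.95 ± 0.636 for Arc (adjusted p = 0.0098). For Npas4 it was −5.51 ± 1.5 (adjusted p = 0.039), a fitted value that depends on groups without counts, and it was lost without any of 10 of the 17 libraries. Ethanol levels also differed between the genotypes: Junb was at 53.6 to 53.8 cpm in BLT1 KO and at 118.4 to 193 in wild-type ethanol skin, and Egr1 at 17.6 to 26.1 and 63.6 to 92.4. With cohort B alone as the wild-type reference, Junb (1.45), Egr1 (1.53) and Fos (1.33, adjusted p = 0.0094) passed, and Fosl1 (1.87, adjusted p = 0.068) and Arc (2.30, adjusted p = 0.11) did not. Whether the libraries of the genotypes were prepared together is not given in the sources used here.

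In trigeminal ganglia the member calls were confined, in the 8 comparisons made, to Fosl2 and Junb, and no member passed before day 8. At days 1 and 2 no member and no gene passed (0% of 25319 genes at day 1 and 0% of 24092 at day 2) in edgeR, with 2034 and 1527 genes at an unadjusted p under 0.05, and DESeq2 called no member on either day. At day 1 Fosl2 was the 1 member with an unadjusted p under 0.05, with 32.4, 24.7, 16.8 and 15.1 cpm against 13.7, 15.4, 13.2 and 13.4 (0.60 ± 0.21, adjusted p = 0.57). The 2 highest are MC903 replicates 1 and 2, which had spinal cord neuron and glia sums of 12500 and 11000 cpm, against 3010 to 5870 in the other 6, and sensory neuron sums of 1640 and 1720, against 2720 to 3640. Without either of them the log2 fold change of Fosl2 was 0.41 and 0.54 (adjusted p = 0.82 and 0.63), and without both, an alternative chosen after seeing the data, it was 0.19 (adjusted p = 0.97). The part of these marker sums in the values was not tested. At day 2 there was none. At day 5 0.00823% of 24300 genes passed and no member did by edgeR or DESeq2, with 3 members at an unadjusted p under 0.05. Fosl2 had 30.2, 25.1 and 28.1 cpm against 20.0, 22.9 and 16.4 without overlap (0.54 ± 0.187, adjusted p = 1), whereas Egr1 (−0.78 ± 0.327) and Npas4 (−1.45 ± 0.635) lay lower with overlapping libraries. Sensory neuron marker sums at day 5 were 3530 to 4130 cpm with MC903 and 2650 to 3140 with ethanol.

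At day 8 Fosl2 had 39.9, 39.6, 25, 27.4 and 31.1 cpm in the MC903 ganglia of uninjected wild-type mice and 18.8, 16.5, 15.7, 22.2 and 14.4 in the ethanol ganglia. Junb had 19.3, 19.2, 16.2, 14.3 and 16.1 cpm against 9.46, 10.5, 11.2, 5.54 and 8.25. No MC903 library fell within the ethanol range for either gene. The log2 fold changes were 0.87 ± 0.141 for Fosl2 (adjusted p = 0.032) and 0.92 ± 0.156 for Junb (adjusted p = 0.04), on a day when 0.16% of 25600 genes passed. Both calls were lost without any of 5 of the 10 libraries (MC903 TG1, TG2 and rep3, and ethanol TG3 and TG6_7) and without the cohort term (adjusted p = 0.21 and 0.23). Within cohort A the values were 1.17 for Fosl2 (adjusted p = 0.015) and 0.95 for Junb (adjusted p = 0.068), and within cohort B 0.66 and 0.89 (adjusted p = 0.88 for each). The study itself singled out Junb on these ganglia as a gene induced by activity, so its direction here is not independent evidence.

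**Figure D2:**
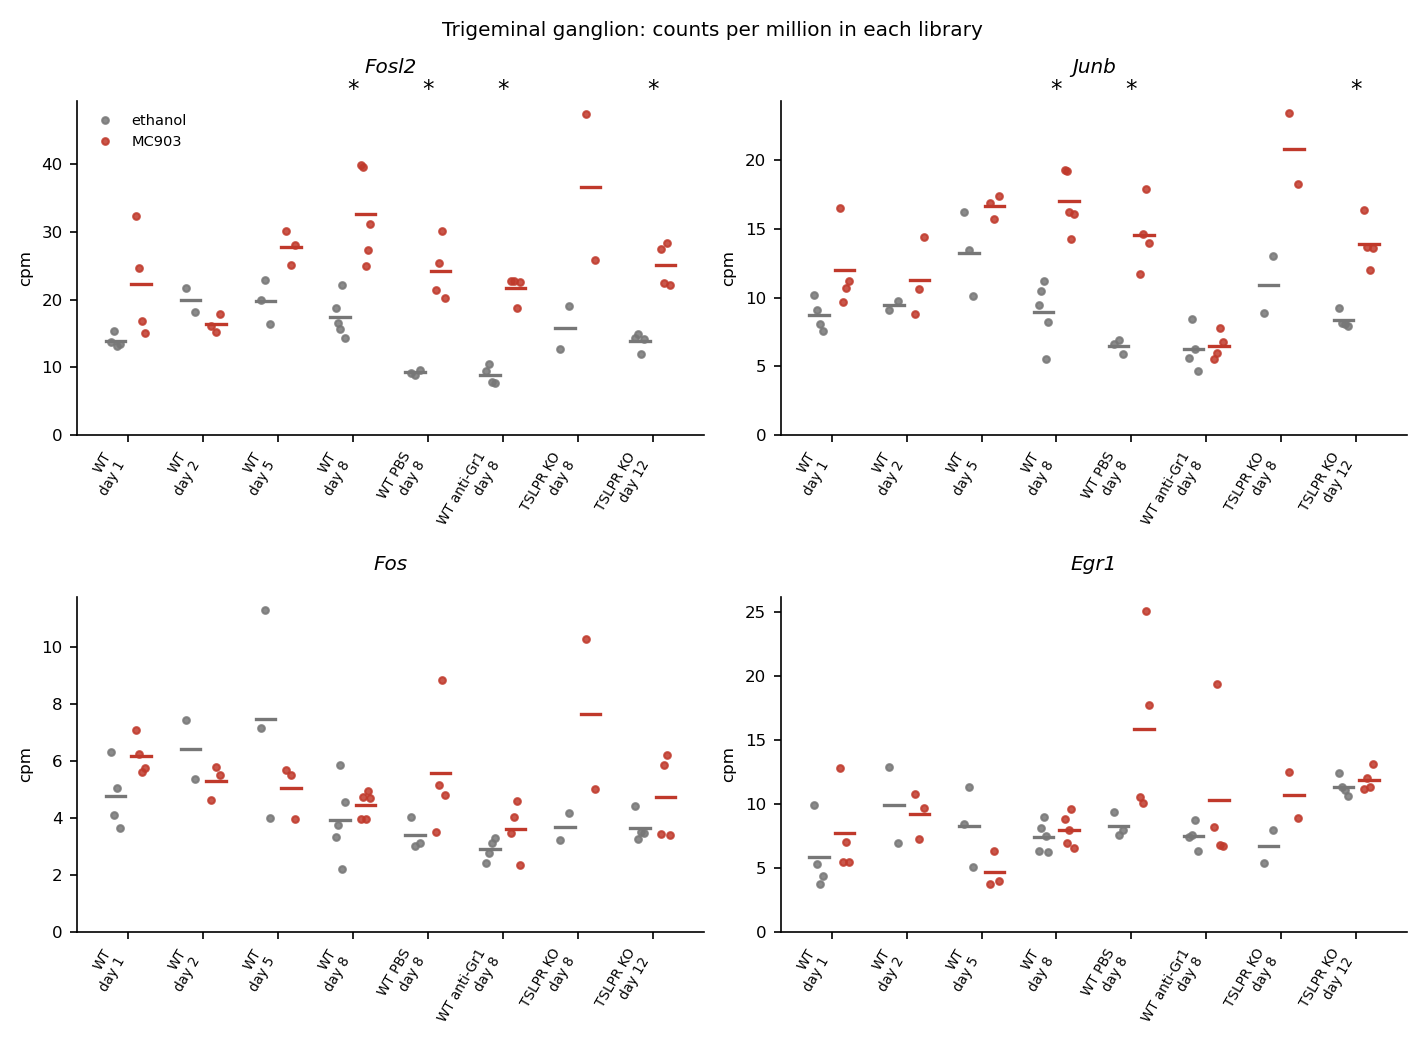
Levels of Fosl2, Junb, Fos and Egr1 in cpm in each trigeminal ganglion library by group, with MC903 and ethanol libraries as separate points, bars at the group means and an asterisk where the member passed the test. At day 8 the MC903 points of Fosl2 lie above the ethanol points in each group shown, while in the aGr1 group the points of Junb overlap (5.54 to 7.79 against 4.64 to 8.43 cpm).

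In ganglia of PBS-injected mice Fosl2 and Junb rose again, where 3.36% of 23708 genes passed. Fosl2 had 21.5, 25.4, 30.1 and 20.2 cpm with MC903 and 9.23, 8.96 and 9.64 with ethanol (fold change on the log2 scale 1.38 ± 0.131, adjusted p = 0.00018). Junb had 11.7, 14.6, 17.9 and 14 cpm against 6.65, 6.96 and 5.93 (1.15 ± 0.138, adjusted p = 0.00095). Both calls held whichever of the 7 libraries was dropped. Egr1 had 10.5, 10.1, 25.1 and 17.7 cpm against 9.35, 7.57 and 7.96, also without overlap, and did not pass (0.93 ± 0.264, adjusted p = 0.1), though it did without the filter on low counts (adjusted p = 0.0014). Sensory neuron sums were 3760 to 4450 cpm with MC903 and 3440 to 3500 with ethanol.

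With aGr1, Fosl2 rose and Junb did not pass, where 1.88% of 24233 genes did. Fosl2 had 22.8, 22.8, 18.8 and 22.6 cpm with MC903 and 9.43, 10.5, 7.85 and 7.69 with ethanol (1.31 ± 0.124, adjusted p = 0.00022). Junb had 5.54, 5.96, 7.79 and 6.81 cpm against 5.62, 8.43, 6.27 and 4.64 (0.09 ± 0.179, adjusted p = 0.87). The difference between the Junb effects was −0.82 ± 0.249 against uninjected mice (unadjusted p = 0.0032, adjusted p = 0.78 in edgeR), where no gene passed (0% of 27015, with 1709 genes and 2 members at an unadjusted p under 0.05, and no member in DESeq2). Against PBS-injected mice, where 0.0349% of 25760 genes passed, it was −1.04 ± 0.238 (unadjusted p = 0.00028, adjusted p = 0.17). This last difference passed in DESeq2 (adjusted p = 0.021) and in edgeR with low-count genes kept (adjusted p = 0.025), and 3 members had an unadjusted p under 0.05. These comparisons share the aGr1 libraries. The study itself reported that neutrophil depletion weakened Junb expression in ganglia, so this difference is not independent evidence. The Fosl2 effect with aGr1 differed from that with PBS by −0.06 ± 0.184.

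In TSLPR KO ganglia at day 8, with 2 libraries per group, no gene passed (0% of 23402) and 1886 had an unadjusted p under 0.05. Fosl2 had 47.4 and 25.8 cpm against 12.7 and 19 (log2 fold change 1.31 ± 0.354, adjusted p = 0.6 in edgeR), and Junb 23.4 and 18.3 against 8.9 and 13 (1.02 ± 0.286, adjusted p = 0.6). Neither gene's groups overlapped, 5 members had an unadjusted p under 0.05, and DESeq2 called Fosl2 (adjusted p = 0.061). Heat shock gene sums were 3480 to 4850 cpm with MC903 and 5750 to 11700 with ethanol, and red blood cell sums were 4390 to 6330 against 1380 to 2100. MC903 replicate 1, the library with 47.4 cpm of Fosl2 and 23.4 of Junb, had keratinocyte, muscle and immune sums above the other 3 (for keratinocytes 156 cpm against 3.71 to 7.36), with 13.19% of its reads ambiguous between genes. Without it the log2 fold change was 0.70 for Fosl2 and 0.74 for Junb (adjusted p = 1 for each). The part of these values in the members' levels was not tested. The difference from uninjected wild-type ganglia was 0.43 ± 0.343 for Fosl2 and 0.09 ± 0.31 for Junb. No member and no gene passed in that test (0% of 26576, with 2234 genes and 1 member at an unadjusted p under 0.05 in edgeR, and no member in DESeq2).

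At day 12 the TSLPR KO ganglia showed both rises with 4 libraries per group, where 0.304% of 25969 genes passed. Fosl2 had 27.5, 22.4, 28.4 and 22.1 cpm with MC903 and 14.3, 15, 12 and 14.2 with ethanol (0.89 ± 0.119, adjusted p = 0.01). Junb had 16.4, 13.7, 12 and 13.6 cpm against 9.28, 8.14, 8.06 and 7.97 (0.76 ± 0.12, adjusted p = 0.029). The Junb call was lost without ethanol replicate 3 or 4. Sensory neuron sums were 4280 to 4710 cpm with MC903 and 3660 to 3960 with ethanol, without overlap, and their part in the rise of Fosl2 and Junb was not tested.

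In spinal cord of uninjected mice Fos, Fosl2 and Junb rose and Arc fell, where 12.2% of 25585 genes passed. Fos had 27.8, 21.5, 22.8 and 24.8 cpm in the MC903 cords and 11.5, 12.8, 19.8, 13.1 and 10.1 in the ethanol cords (log2 fold change 0.85 ± 0.165, adjusted p = 0.0042). Fosl2 had 25.3, 23.3, 23.1 and 36.9 cpm against 18.5, 11.9, 12.4, 12.1 and 13.4 (0.98 ± 0.194, adjusted p = 0.0046), and Junb 15, 14.1, 10.7 and 18.9 against 8.69, 8.0, 9.23, 7.25 and 8.67 (0.81 ± 0.163, adjusted p = 0.0052). These 3 genes had no overlap between groups. Arc had 5.65, 3.91, 5.12 and 3.52 cpm against 5.57, 11, 8.92, 10.5 and 10, with 1 ethanol library inside the MC903 range (−1.01 ± 0.185, adjusted p = 0.0027). All 4 calls held whichever of the 9 libraries was left out. The study itself singled out Fos and Junb in these cords as genes induced by activity, so their direction here is not independent evidence.

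Markers of other cells moved with the treatment in the cords. Schwann and satellite glia marker sums were 6130 to 7730 cpm with MC903 and 11600 to 16200 with ethanol, fibroblast sums were 153 to 177 against 177 to 384, and heat shock sums were 2940 to 3210 against 3310 to 3580. The Schwann and heat shock sums were lower with MC903, without overlap, in the PBS and aGr1 cords too. Their part in the members' values was not tested.

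**Figure D3:**
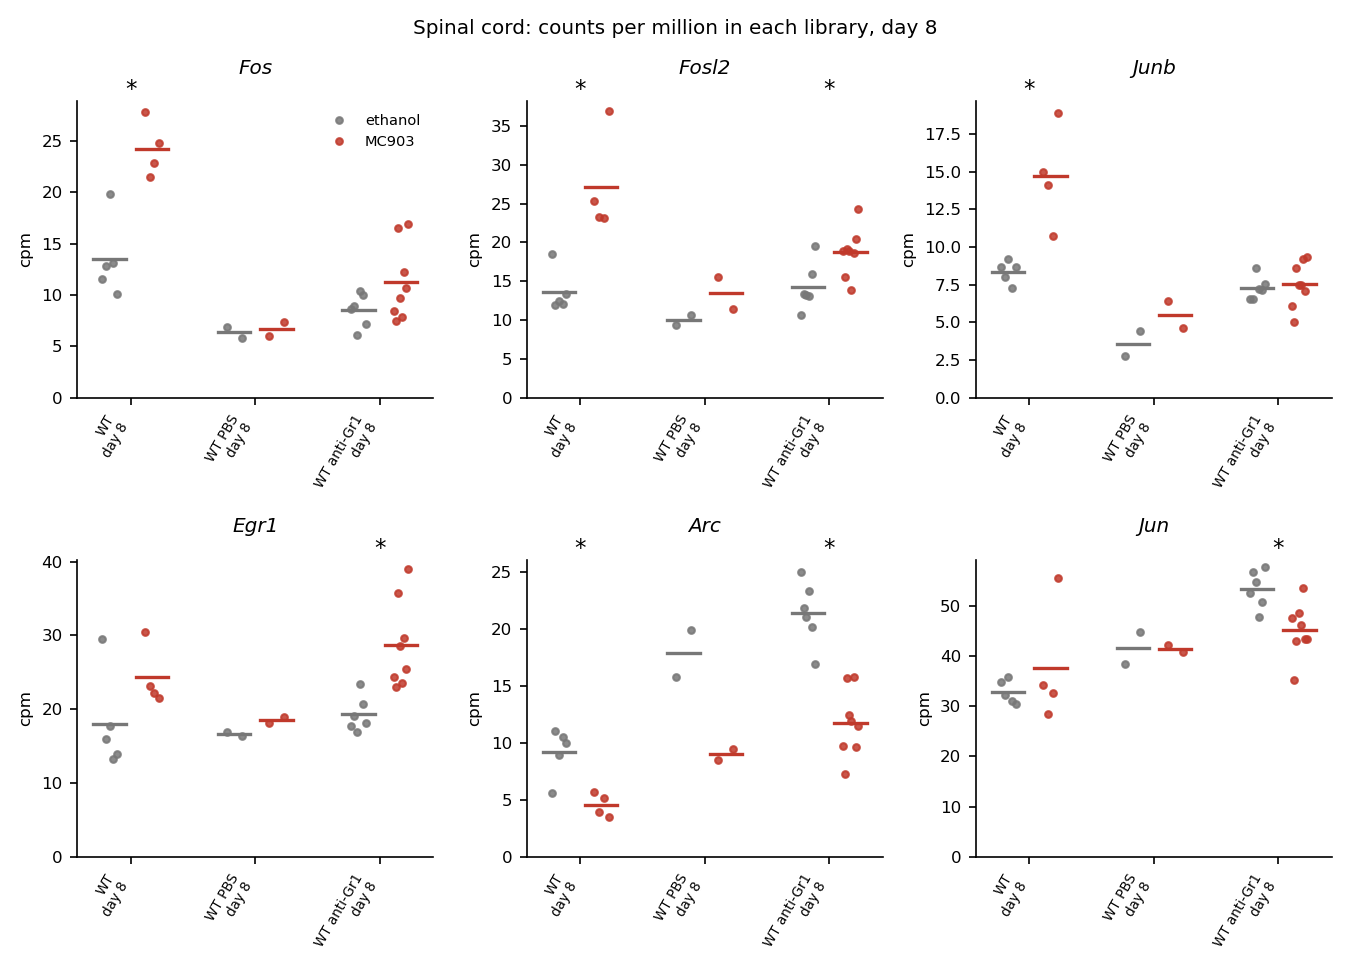
Levels of Fos, Fosl2, Junb, Egr1, Arc and Jun in cpm in each spinal cord library by group, with MC903 and ethanol libraries as separate points, bars at the group means and an asterisk where the member passed the test. The mean of Arc is lower with MC903 in each group, at 8.49 and 9.49 against 15.8 and 19.9 cpm with PBS, where no member passed.

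With PBS, 2 libraries per group, no member and no gene passed in the cord (0% of 24573, with 1571 genes at an unadjusted p under 0.05). The 1 member at an unadjusted p under 0.05 was Arc, with 8.49 and 9.49 cpm against 15.8 and 19.9 (log2 fold change −1.01 ± 0.18, adjusted p = 0.29 in edgeR and 0.0056 in DESeq2). Fos overlapped in these PBS cords, at 6.03 and 7.39 cpm with MC903 and 6.88 and 5.82 with ethanol. Junb had 6.42 and 4.61 cpm against 2.74 and 4.45. With aGr1 4 members passed, where 11.3% of 27649 genes did. Arc fell, with a lowest, median and highest level of 7.27, 11.7 and 15.8 cpm in 8 MC903 cords and 16.9, 21.4 and 25 in 6 ethanol cords, without overlap (−0.87 ± 0.134, adjusted p = 0.00025). Egr1 rose, at 23, 27 and 39.0 cpm against 16.9, 18.6 and 23.4 (0.57 ± 0.114, adjusted p = 0.0028). Jun fell slightly (−0.25 ± 0.0666, adjusted p = 0.02), from 47.7 to 57.7 cpm with ethanol to 35.2 to 53.5 with MC903. Fosl2 rose by 0.39 ± 0.121 (adjusted p = 0.043), a call lost without any of 10 of the 14 libraries, and Junb had 0.05 ± 0.114. Fos did not pass, and its groups overlapped (7.5 to 16.9 cpm with MC903 against 6.11 to 10.4 with ethanol). The study reported Fos and Junb as not increased in cords of neutrophil-depleted mice, so these values are not independent of it.

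The MC903 effect in aGr1 cords against uninjected cords differed most for Junb (−0.80 ± 0.202, adjusted p = 0.065 in edgeR and 0.023 in DESeq2), where 0.532% of 28747 genes passed. No member passed in edgeR, and 3 had an unadjusted p under 0.05. Against PBS cords no member or gene passed (0% of 28415, with 1485 genes and 0 members at an unadjusted p under 0.05 in edgeR, and no member in DESeq2). The Arc effects differed by 0.11 ± 0.233 from uninjected and by 0.13 ± 0.284 from PBS cords.

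**Figure D4:**
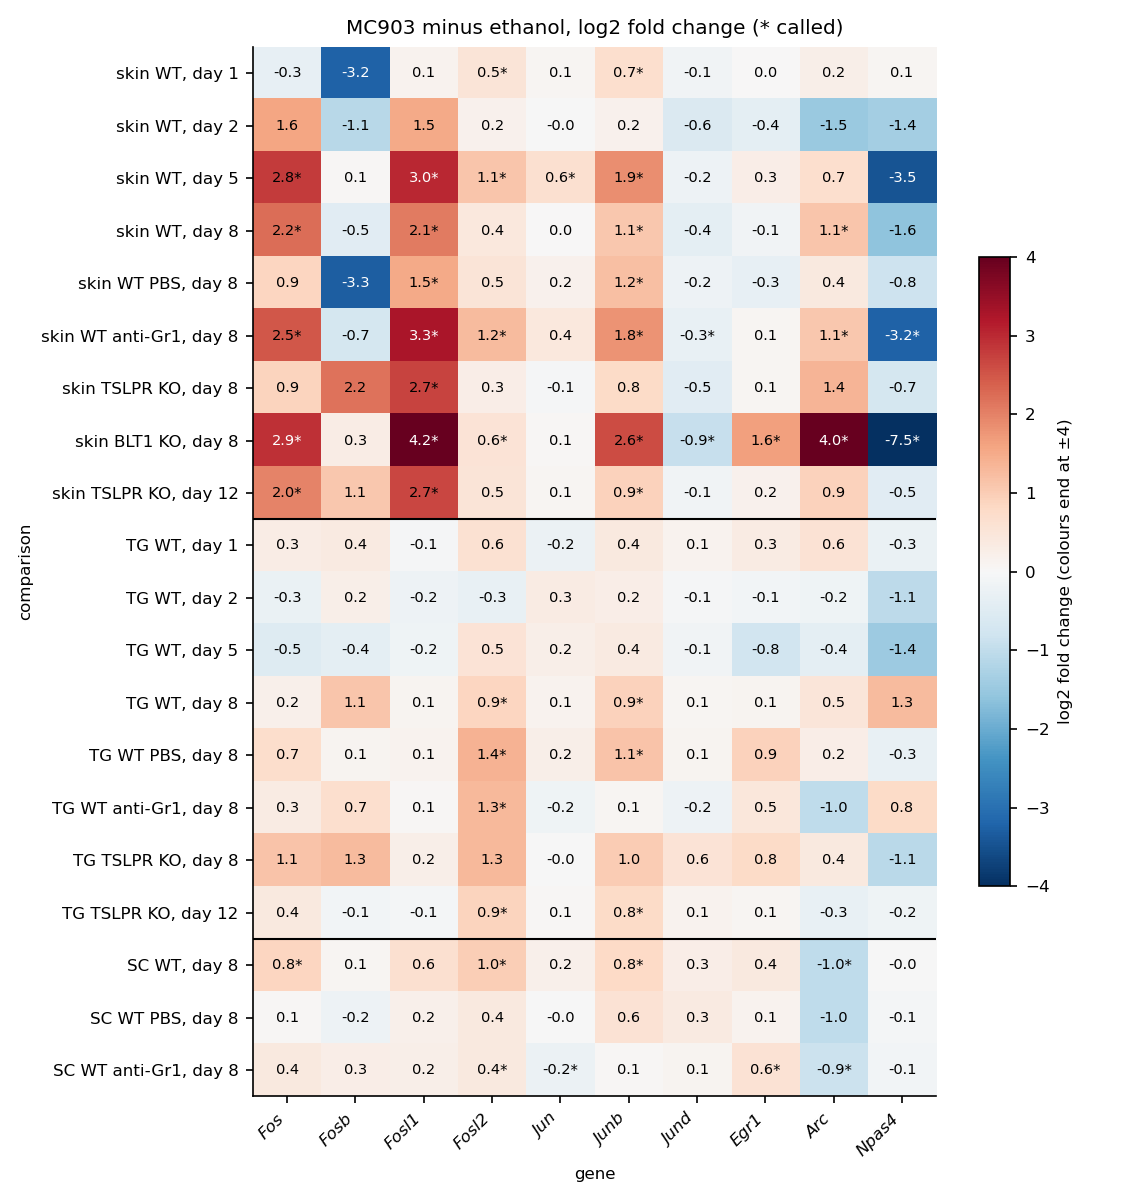
Log2 fold changes of MC903 against ethanol for the 10 members (x axis) in the 20 comparisons (y axis, aGr1 shown as anti-Gr1), printed in each cell and coloured by sign and size up to 4, with an asterisk where the member passed the test of its tissue. Fosl1 and Junb carry asterisks in 7 of the 9 skin comparisons each, only Fosl2 and Junb carry them in ganglia, and Arc is negative in the 3 spinal cord comparisons.

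Other immediate early genes were followed in a list of 38, besides the members. In skin 8 of 37 tested rose and 5 fell at 6 hours, none passed at day 2, 16 rose and 2 fell at day 5, and 17 of 38 rose at day 8. Ptgs2, the inducible prostaglandin synthase, rose most, from 1.16 to 1.94 cpm with ethanol to 295 to 438 with MC903 at day 5 (log2 fold change 7.77 ± 0.271, adjusted p = 1.2e-05) and by 6.02 ± 0.236 at day 8 (adjusted p = 4.9e-09). Tiparp, an ADP-ribose transferase, rose by 1.52 ± 0.159 at day 5 (adjusted p = 0.0011) and Socs3, a brake on cytokine signalling, by 2.06 ± 0.215 at day 8 (adjusted p = 2.4e-05). At 6 hours the genes that rose included Gadd45b (1.02 ± 0.0974, adjusted p = 0.00045), Egr3 (0.82 ± 0.125, adjusted p = 0.0043) and Myc (0.67 ± 0.101, adjusted p = 0.0042), while Nr4a3 fell by 1.58 ± 0.378 (adjusted p = 0.025) and Gem by 1.13 ± 0.187 (adjusted p = 0.006). In the injected and knockout groups 5 rose with PBS, 20 rose and 3 fell with aGr1, 2 rose in TSLPR KO at day 8, 6 rose and 1 fell at day 12, and 23 rose and 7 fell in BLT1 KO. The shares of all genes that passed were 13%, 0%, 14.9% and 23.4% at days 1, 2, 5 and 8. They were 3.99% with PBS, 32.6% with aGr1, 2.45% and 10% in TSLPR KO at days 8 and 12, and 28.6% in BLT1 KO. The medians of the list at days 1, 5 and 8 were −0.01, 0.57 and 0.38, beside medians of 0.001, −0.03 and −0.033 over all genes tested.

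Known targets of AP-1 were called more often than not from day 5 in skin. Of 17 tested, 3 rose and 2 fell at 6 hours, 13 rose at day 5, 13 rose and 2 fell at day 8, and 11 rose with PBS. With aGr1 15 rose and 1 fell, in TSLPR KO 9 rose at day 8 and 11 at day 12, and in BLT1 KO 16 rose and 1 fell. The shares of all genes that passed were 13%, 14.9% and 23.4% at days 1, 5 and 8. They were 3.99% with PBS, 32.6% with aGr1, 2.45% and 10% in TSLPR KO at days 8 and 12, and 28.6% in BLT1 KO. Mmp13, a collagenase, rose by 7.29 ± 0.251 at day 5 (adjusted p = 1.2e-05), from 0.325 to 0.723 cpm to 73.3 to 92.6. Krt6a, a keratin of activated keratinocytes, rose by 4.43 ± 0.201 at day 8 (adjusted p = 2e-08), and Hbegf, an EGF receptor ligand, by 2.72 ± 0.209 at day 5 (adjusted p = 0.00027). Ivl, which encodes the cornified envelope protein involucrin, fell by 1.93 ± 0.409 at day 8 (adjusted p = 0.0045). The medians of the list were 0.11, 2.72 and 2.71 at days 1, 5 and 8. Many of these genes are expressed by keratinocytes, whose marker sums were higher with MC903 in the skin groups given above, and their part was not tested.

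Among 19 partners of AP-1 from the ATF, BATF, JDP, BACH and MAF families, 2 rose in skin at 6 hours, 3 rose and 1 fell at day 5, and 4 rose and 2 fell at day 8, beside 13%, 14.9% and 23.4% of all genes at these days. The medians of their log2 fold changes were −0.05, 0.07 and 0.0, and nothing particular to the list is read from these shares. None passed with PBS or in TSLPR KO at day 8, 7 rose and 3 fell with aGr1, 6 rose and 2 fell in BLT1 KO, and 1 rose at day 12. Of all genes, 3.99% passed with PBS, 32.6% with aGr1, 28.6% in BLT1 KO, and 2.45% and 10% in TSLPR KO at days 8 and 12. Atf4, a factor of the integrated stress response, rose at day 5 (0.69 ± 0.17, adjusted p = 0.032) and day 8 (0.49 ± 0.099, adjusted p = 0.0033). Of 20 kinases and factors upstream of the AP-1 genes, 1 rose and 1 fell at 6 hours, 4 rose and 2 fell at day 5, and 4 rose at day 8, with medians of 0.03, 0.16 and 0.06 and beside the same shares of all genes, from which nothing particular to this list is read either. Map2k1, the gene of the ERK kinase MEK1, rose by 1.09 ± 0.17 at day 5 (adjusted p = 0.006) and 0.95 ± 0.0904 at day 8 (adjusted p = 1.1e-05), and Elk3, a ternary complex factor, rose by 1.17 ± 0.138 at day 8 (adjusted p = 6.7e-05) after a fall of 0.58 ± 0.112 at 6 hours (adjusted p = 0.011). With PBS 2 rose, with aGr1 4 rose and 1 fell, in BLT1 KO 6 rose and 2 fell, and in TSLPR KO 0 passed at day 8 and 2 rose at day 12. The shares of all genes in these groups are those given for the partners.

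In ganglia the neuronal late-response genes, a list of 10 that neurons induce after sustained activity, had calls in each group in which Fosl2 passed. They also had a call at day 5, where Fosl2 did not pass. Of the list, 1 rose at day 5, 4 at day 8, 5 with PBS, 4 with aGr1 and 4 in TSLPR KO at day 12, and none fell in these groups. The shares of all genes that passed were 0.00823% at day 5, 0.16% at day 8, 3.36% with PBS, 1.88% with aGr1 and 0.304% in TSLPR KO at day 12. Vgf is a secreted neuropeptide precursor, and as the study singled it out on these ganglia its direction is not independent evidence. It rose from 34.6 to 49.9 cpm to 75.5 to 178 at day 8 (1.5 ± 0.123, adjusted p = 9e-05). Bdnf, a neurotrophin, rose by 1.38 ± 0.156 at day 8 (adjusted p = 0.0026) and 1.65 ± 0.129 with PBS (adjusted p = 4.7e-05). Nptx2, a synaptic pentraxin, rose by 1.4 ± 0.123 at day 8 (adjusted p = 0.00015) and was 1 of the genes called at day 5 (1.47 ± 0.169, adjusted p = 0.094). With aGr1, Nptx2 (1.34 ± 0.139, adjusted p = 0.00046) and Bdnf (1.32 ± 0.236, adjusted p = 0.015) rose as well. Of the 38 other immediate early genes 2 rose at day 8 (Socs3 and Gadd45g), 5 with PBS, 2 with aGr1 and 2 in TSLPR KO at day 12, and none fell. The list's median was 0.22 at day 8, beside 0.008 over all genes tested.

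In spinal cord 14 of 38 other immediate early genes rose in uninjected mice and none fell, 0 passed with PBS, and 6 rose and 1 fell with aGr1. Of all genes, 12.2% passed in uninjected cords, 0% with PBS and 11.3% with aGr1. Maff, a small MAF protein that also stands in the list of AP-1 partners, rose most, from 1.71 to 3.08 cpm to 25.4 to 33.3 in uninjected cords (3.61 ± 0.193, adjusted p = 8.4e-08) and from 1.45 to 2.82 to 4.92 to 22.8 with aGr1 (2.37 ± 0.316, adjusted p = 6e-05). Csrnp1 (1.52 ± 0.187, adjusted p = 0.00013), Dusp1, a phosphatase of MAP kinases (1.16 ± 0.161, adjusted p = 0.00036), and Zfp36, which destabilises cytokine mRNAs (1.0 ± 0.154, adjusted p = 0.00077), rose in uninjected cords. The list's median there was 0.36, beside 0.007 over all genes tested. Of 13 AP-1 targets tested in those cords 3 fell and none rose, among them Ccnd1 (fell by 1.36 ± 0.122, adjusted p = 9.1e-06) and Cd44 (fell by 0.75 ± 0.0905, adjusted p = 0.00011). Scg2, of the neuronal late-response list, rose by 0.38 ± 0.0603 in uninjected cords (adjusted p = 0.0011).

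Because many of these genes respond within minutes, the members' spread between libraries of the same group was measured. The measure was the pooled standard deviation of log2(cpm + 0.5) within ethanol groups, beside all genes with a mean of at least 1 cpm. In skin Fosb had 1.21 and Fos 0.75, above 98.4% and 96.3% of 17402 genes, whose median was 0.332. The other members ran from 0.284 for Jun (above 32% of genes) to 0.446 for Egr1 (78.3%), apart from Npas4, which was under 1 cpm. In the MC903 libraries of skin the spread of Fos was 0.499 and that of Fosl2 0.143. In ganglia Arc had 0.47 (above 93.9% of 16897 genes, median 0.214), Fosl1 0.394 (88.1%), Fos 0.372 (85.8%) and Egr1 0.367 (85.2%). There Fosl2 had 0.202 (45.6%) and Junb 0.27 (67%), and Fosb and Npas4 were under 1 cpm. In spinal cord Fosb had 0.517 (97.9% of 17185 genes, median 0.156), Egr1 0.309 (87.8%), Fos 0.3 (86.7%) and Jund 0.0839 (14.3%). Dissection times are not given, so a share of this spread due to them cannot be told apart from other differences between animals.

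**Figure D5:**
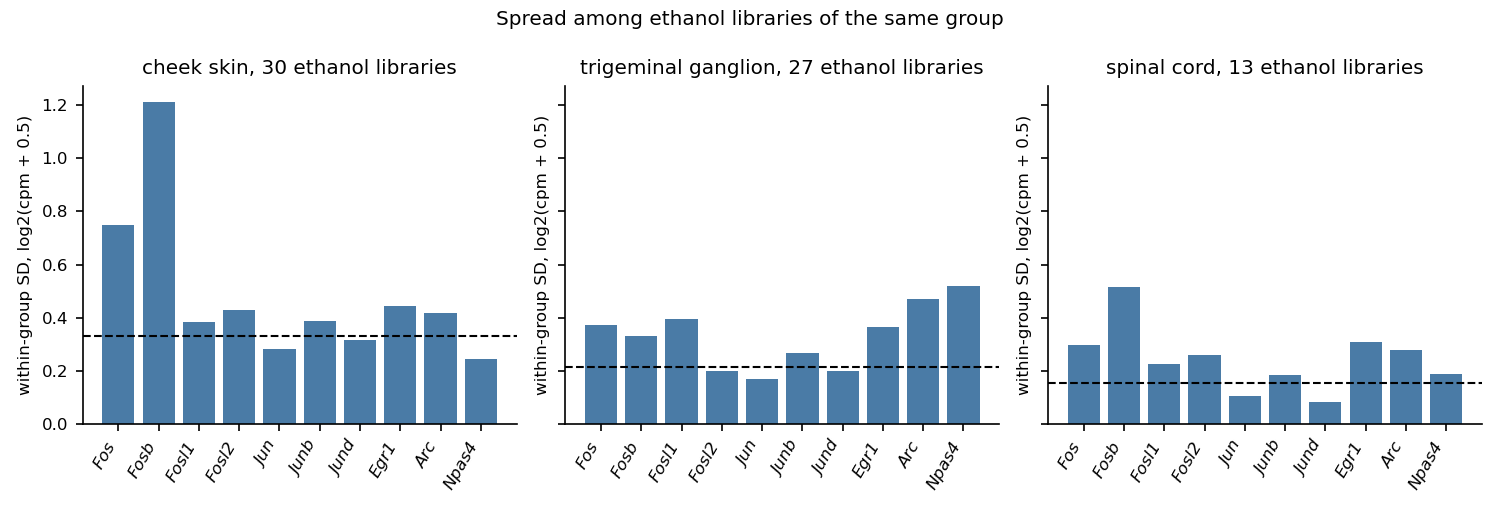
Pooled standard deviation of log2(cpm + 0.5) of each member within ethanol groups (bars from 0) in skin, trigeminal ganglion and spinal cord, with a dashed line at the median of all genes with a mean of at least 1 cpm. Fosb (1.21) and Fos (0.75) in skin stand furthest above the line at 0.332, and Jun and Jund are near or below it in each tissue.

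Members that varied together were sought in the deviations of each library from its own group, by correlation with Fos over the libraries of each tissue, in 27 relations tested by permutation within groups with Benjamini-Hochberg adjustment. In skin, over 61 libraries, Fosb had a Pearson r of 0.76 (permutation p = 1e-05, the smallest the permutations can give, adjusted 0.00027) and a Spearman rho of 0.65 (p = 7e-05, adjusted 0.0019), and r was 0.68 without the 2 libraries farthest in Fos. Egr1 had an r of 0.48 (permutation p = 0.00015, adjusted 0.002) and a rho of 0.46 (p = 0.0013, adjusted 0.012), with r at 0.56 without those libraries. Fosl1 had 0.37 and 0.4 (adjusted permutation p = 0.044 and 0.036, r 0.45 without them). Junb (r = 0.07, rho = 0.15) and Fosl2 (0.13 and 0.22), which were called most often over the comparisons of all tissues, did not pass. In skin alone, Fosl1 and Fos were called in more comparisons than Fosl2. In ganglia, over 56 libraries, Egr1 had an r of 0.5 and a rho of 0.45 (adjusted permutation p = 0.02 and 0.036, r 0.5 without the farthest libraries), and Junb an r of 0.48 (adjusted 0.044) and a rho of 0.37 (adjusted 0.1), with r at 0.36. In spinal cord, over 27 libraries, the rho of Egr1 was 0.69 (adjusted permutation p = 0.009) and its r 0.56 (adjusted 0.063), falling to 0.41 without the farthest libraries.

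Across all genes with a mean of at least 1 cpm, those most like Fos by the same measure in skin were Dusp1 (r = 0.8), itself an immediate early gene, Fosb (0.76), Tceal9 (0.71), S100a10 (0.71) and Tpd52l2 (0.7), of 17639 genes over 61 libraries. In ganglia they included Gm28818 (0.67), Clcn1 (0.58), Vdr (0.55) and Rbm20 (0.55), of 16957 genes over 56 libraries, and in spinal cord Vip (0.74), 4833423E24Rik (0.73), Dusp4 (0.69), Cyb5a (0.67) and Pea15a (0.67), of 17265 genes over 27 libraries. Libraries of a tissue share depth and handling, and these ranks are a description of these libraries.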

How the data were processed

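The authors deposited 1 table of raw read counts per gene and library. They were made from poly(A)-selected single-end reads aligned to mm10 with TopHat2 and Bowtie2 and counted with HTSeq, per the study's methods and the submitters' processing notes. The strand setting and annotation of the counting are not given in the sources used here. The 5 tally lines were left out. Reads on no gene were 6.15% to 21.54% and ambiguous reads 1.77% to 13.19% of these reads plus those on genes, and 45143 of 46078 identifiers matched symbols in GENCODE M21 (935 did not). The 18 wild-type libraries of day 12 were not used.

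Genes with at least 10 counts over a fit were tested in edgeR 4.0.16 (R 4.3.3, TMM scaling) by its quasi-likelihood test, p-values were adjusted by Benjamini-Hochberg, and DESeq2 1.42.0 was an alternative. Values in cpm carry no TMM scaling and log2 fold changes do. At day 8 in uninjected wild-type skin and ganglia, a cohort term marked the different label styles. Differences between effects were fitted as interactions. Spread and correlations used Python 3.11.15 and log2(cpm + 0.5), with 100000 permutations, which give a smallest p of 1e-05. Limits against groups without counts use a floor of 3 counts per library and cover counting error only. The scripts' tests were run on simulated data first. The DESeq package named by the study was not run.

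Replicate numbers come from the labels. Among comparisons with at least 3 pairs, same-numbered libraries deviated together, with every r over 0.1, in only 2 groups. These were wild-type ganglia at day 5 (3 pairs, 0.14 to 0.34) and TSLPR KO ganglia at day 12 (4 pairs, 0.22 to 0.59), where the replicate block changed no member's call. In wild-type skin at day 2 the only 2 pairs also had r over 0.1 (0.17 and 0.23). The members and gene lists were chosen with earlier results of these data known. From each list up to 4 genes a direction were eligible to be named, those with the smallest p among called genes whose groups did not overlap, and up to 5 genes most like Fos. Some items that this rule names are not reported here.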

Additional observations from a re-analysis of the deposited data

Results flagged for a closer look

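Single libraries stood apart from their group, by the gap to the nearest other library over the group's range, in 17 of 200 pairs of a member and a group of 4 to 10 libraries. Chance marks about 1 in 20 groups, which is 10 of these pairs. In skin, ethanol replicate 3 at day 1 had 51.1 cpm of Fosb (others 1.61 to 4.0), MC903 replicate 4 had 2.19 cpm of Fosb (1.32 to 1.4) and MC903 replicate 3 had 53.4 cpm of Jun (66.9 to 69.4). At day 8 MC903 rep2 had 17.1 cpm of Fosl1 (8.59 to 10.3) and ethanol skin6 had 461 cpm of Fosl2 (320 to 370). In TSLPR KO skin at day 12 MC903 replicate 3 had 59.5 cpm of Fos (20.4 to 25.5).

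In ganglia at day 1, MC903 replicate 1 had 35.7 cpm of Jund (34.1 to 34.2), MC903 replicate 2 had 4.98 cpm of Arc (1.12 to 1.5) and ethanol replicate 1 had 2.03 cpm of Npas4 (0.388 to 0.481). At day 8 MC903 rep2 had 2.65 cpm of Fosl1 (1.14 to 1.4). With aGr1, MC903 replicate 3 had 18.8 cpm of Fosl2 (22.6 to 22.8) and MC903 replicate 2 had 19.4 cpm of Egr1 (6.73 to 8.22). In TSLPR KO ganglia at day 12 ethanol replicate 1 had 9.28 cpm of Junb (7.97 to 8.14).

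In uninjected spinal cord, ethanol replicate 1 was high for 3 members, with 7.86 cpm of Fosb (1.74 to 2.87), 18.5 cpm of Fosl2 (11.9 to 13.4) and 29.5 cpm of Egr1 (13.3 to 17.7). MC903 replicate 4 had 36.9 cpm of Fosl2 (23.1 to 25.3).

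The MC903 effect differed between BLT1 KO and wild-type skin, as a difference of log2 fold changes in edgeR, by 2.12 for Fosl1, 1.6 for Junb, 1.83 for Egr1, 2.95 for Arc and −5.51 for Npas4, the last a fitted value against groups without counts.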

How the results depend on the processing

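Of 52 called member values (47 effects and 5 differences between effects), all kept their side of the threshold with DESeq2 and with RLE scaling. Without the filter on low counts 51 did and 1 was lost, and with filterByExpr all 51 that could be tested did. One fit per tissue and the replicate block each lost 7 of 52, and leaving out a library lost 72 of 465 refits. No called value changed sign. Among 1653 values of members not called, under alternatives other than leaving out 1 library, 45 changed sign and 0 were called with the other sign. Jund in skin at day 8, at −0.40, became 0.01 in cohort B alone. Of 201 counts of called members under alternatives, 166 stayed within 1.5 times, and the cause of the other changes was not tested.

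With DESeq2 the number of members called became 1 in skin at day 2, 2 in TSLPR KO skin at day 8, 1 in TSLPR KO ganglia at day 8, 1 in PBS cord, 2 and 1 for aGr1 skin against uninjected and PBS skin, 1 for aGr1 against PBS ganglia and 1 for aGr1 against uninjected cord. Without the low-count filter it became 3 in TSLPR KO skin at day 8, 5 in PBS ganglia, 2 in TSLPR KO ganglia at day 8 and 1 for aGr1 against PBS ganglia. RLE scaling and filterByExpr each gave 1 for aGr1 against uninjected skin. One fit per tissue gave 1 in skin at days 1 and 2, 1 in ganglia at day 1, 4 and 1 in TSLPR KO ganglia at days 8 and 12, 2 in aGr1 cord, and 1 for aGr1 skin against each reference. In ganglia at day 8 it became 0 without the cohort term and 0 in cohort B, and with cohort B as the wild-type reference 3 members differed in BLT1 KO skin. Leaving out the libraries that stand apart, chosen after seeing the data, gave 4 in aGr1 skin.

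With the replicate block the counts became 2 in skin at day 2, 0 in PBS skin, 4 in TSLPR KO skin at day 8, 6 in PBS ganglia, 2 in TSLPR KO ganglia at day 8, 1 in PBS cord, 2 in aGr1 cord and 1 for aGr1 against uninjected skin. Outside the 2 ganglion groups whose numbers pair, the libraries are known to share only a number. In skin at day 2, with 2 pairs, r was 0.17 and 0.23. In PBS cord the pairs had r = −0.38, and the crossed block, chosen after seeing the data, also gave 1.

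Leaving out 1 library gave, in skin, 1 to 4 members at day 1, 0 to 0 at day 2, 4 to 5 at days 5 and 8, 0 to 3 with PBS, 5 to 7 with aGr1, 1 to 2 and 1 to 3 in TSLPR KO at days 8 and 12, and 7 to 8 in BLT1 KO. In ganglia it gave 0 to 0 at days 1, 2 and 5, 0 to 2 at day 8, 2 to 6 with PBS, 1 to 2 with aGr1, and 0 to 3 and 1 to 2 in TSLPR KO at days 8 and 12. In cord it gave 4 to 7, 0 to 4 with PBS and 3 to 4 with aGr1. Differences between effects ran from 0 to 3 (aGr1 against uninjected skin), 0 to 1 (aGr1 against PBS skin), 0 to 0 (TSLPR KO skin), 4 to 5 (BLT1 KO skin), 0 to 0, 0 to 1 and 0 to 0 in ganglia (aGr1 against uninjected and PBS, TSLPR KO) and 0 to 1 in cord for each reference. Where a refit left 1 library in a group, that library was assumed to vary like the others. Groups of 2 or 3 libraries limit what a missed call shows, and Npas4, at few or 0 counts with MC903 in skin, is read there only as a limit.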
